A study of Mus musculus with 12 samples.

Results

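The 10 genes described here are the epidermal and stress keratins of mouse dorsal skin, chosen by name as Krt5, Krt14 and Krt15 (basal keratins), Krt1, Krt10 and Krt77 (suprabasal keratins) and Krt6a, Krt6b, Krt16 and Krt17 (stress keratins). All 10 were among the 36400 genes of the deposited table and among the 21890 genes tested. Bulk RNA was sequenced from dorsal skin of female BALB/c mice that were 6 weeks old at purchase, with 4 groups of 3 libraries, all collected on day 30. The study describes 6 mice in each group. Whether a library comes from 1 mouse or from several is not stated in the sources used here. The back of every mouse was clipped and depilated before the first application. Control mice had only vehicle (acetone with olive oil) applied, and DNCB mice were sensitized with 1% and challenged with 0.5% 1-chloro-2,4-dinitrobenzene, a hapten that elicits an allergic contact reaction resembling atopic dermatitis. The scMSC and scivMSC groups received the same DNCB and, in addition, 4 injections of 2000000 human umbilical cord mesenchymal stem cells from day 13 to day 25. The cells were given in 100 µL under the skin in scMSC mice, and in 50 µL under the skin plus 50 µL into a vein in scivMSC mice. No injection of cell-free medium is described for the DNCB mice, so the effect of the cells and that of the injections cannot be told apart.

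Keratins build the intermediate filaments of epithelial cells, and each filament pairs an acidic type I chain with a basic type II chain. Basal keratinocytes make the type II keratin Krt5 with the type I keratins Krt14 and Krt15, and cells that leave the basal layer switch to Krt1 (type II) and Krt10 (type I). Krt77 is a type II relative of Krt1 that is also suprabasal. Krt6a and Krt6b (type II) and Krt16 and Krt17 (type I) are kept low between the follicles of resting skin, are made in parts of the hair follicle, and are classical markers of wounded or inflamed epidermis.

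Levels are given as FPKM, fragment counts scaled to transcript length and library size. Comparisons between genes have a limit for Krt1. In control replicate 1, Krt1 had 161033 estimated counts and 505 FPKM, and Krt5 had 160750 estimated counts and 1013 FPKM. The transcripts read here are 2455 bases for Krt1 and 2197 bases for Krt5. Krt1 was thus scaled to a length above that of its transcript and may be listed low against the other genes. Its rank, its ratios and the class shares are read with this limit. Changes are log2 fold changes fitted on the deposited estimated counts, with their standard error (SE), and a gene was called changed at an adjusted p under 0.05 with an absolute log2 fold change above 1. In bulk skin, a change in the number of cells of a type and a change in RNA per cell cannot be told apart.

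The genes lie in the keratin clusters of chromosomes 11 (type I) and 15 (type II), all on the minus strand, at positions of the GRCm38 build. The basal keratins are Krt5 (ENSMUSG00000061527, chr15:101707070-101712898), Krt14 (ENSMUSG00000045545, chr11:100203162-100207548) and Krt15 (ENSMUSG00000054146, chr11:100131758-100135928). The suprabasal keratins are Krt1 (ENSMUSG00000046834, chr15:101845426-101850794), Krt10 (ENSMUSG00000019761, chr11:99385254-99389364) and Krt77 (ENSMUSG00000067594, chr15:101858731-101869705), so Krt77 is the neighbour of Krt1. The stress keratins are Krt6a (ENSMUSG00000058354, chr15:101689910-101694307), Krt6b (ENSMUSG00000023041, chr15:101676023-101680287), Krt16 (ENSMUSG00000053797, chr11:100246091-100248902) and Krt17 (ENSMUSG00000035557, chr11:100256217-100261029). Krt6b, Krt6a and Krt5 follow each other on chromosome 15.

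Several of these genes are near copies, which limits how far reads can be assigned to one of them. The coding sequences of Krt6a and Krt6b differed at 37 of 1659 aligned positions (97.8% identical) and shared a run of 280 identical bases in exon 1 of 9. Windows of 120 bases that hold the most differences between Krt6a (chr15:101693826-101693945) and Krt6b (chr15:101679801-101679920) within 1 exon are shown because they mark where reads can separate the pair. Capitals mark the 8 bases that differ, both sequences are from exon 1 and are given 5′ to 3′ on the minus strand of GRCm38:
Krt6a: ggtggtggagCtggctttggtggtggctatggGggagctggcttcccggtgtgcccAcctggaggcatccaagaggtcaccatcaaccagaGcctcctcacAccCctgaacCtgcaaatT
Krt6b: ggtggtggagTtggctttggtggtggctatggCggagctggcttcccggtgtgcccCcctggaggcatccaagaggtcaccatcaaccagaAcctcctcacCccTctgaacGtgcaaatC

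Krt16 shared a run of 134 bases with Krt14 in exon 1 of 8, shown with 10 bases on each side from Krt16 (chr11:100248466-100248619) and Krt14 (chr11:100207007-100207160), because these genes are assigned to different classes here. Capitals mark the 4 positions that differ, all outside the shared run:
Krt16: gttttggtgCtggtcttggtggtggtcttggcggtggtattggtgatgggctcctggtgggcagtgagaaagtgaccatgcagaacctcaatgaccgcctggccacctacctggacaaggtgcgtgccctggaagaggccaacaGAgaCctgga
Krt14: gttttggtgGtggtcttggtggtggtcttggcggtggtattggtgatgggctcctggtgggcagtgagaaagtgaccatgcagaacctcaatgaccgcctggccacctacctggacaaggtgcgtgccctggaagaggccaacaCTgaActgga

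Of all 75-base windows of its transcript, Krt6a had 42.3% and Krt6b 39.6% that occur letter for letter in the transcript of another gene, mostly each other. The share was 28.9% for Krt16, mostly with Gm11597 and for the rest with Krt14. It was 5.91% for Krt14 and 5.18% for Krt5. No such window was found for Krt15, Krt1, Krt10, Krt77 and Krt17. With 150-base windows the share fell to 18.7% for Krt6a, 18.8% for Krt6b and 18.4% for Krt16, and no shared window was left in the other 7 genes. The read length is not given in the sources used here, so the values of Krt6a, Krt6b and Krt16 are read with this limit.

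The pseudogene Gm11597 (chr11:100228845-100232078, minus strand), which lies between Krt14 and Krt16, was listed at 382 to 516 FPKM in the DNCB libraries and at 8.95 to 24.8 FPKM in the control libraries. It was listed at 0 to 30.2 FPKM in scMSC and at 29.7 to 274 FPKM in scivMSC. Its values were high and low in the same groups as those of Krt16. The antisense gene Gm49428 (chr15:101690309-101691941, plus strand) lies inside Krt6a, and Gm11940 (chr11:99387340-99387897, plus strand) overlaps Krt10. Whether strand was used in counting is not given in the sources used here, so reads of these pairs may not be separable.

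A promoter window was held for 4 of the 10 genes in the RefSeq tables used (Krt5, Krt10, Krt14 and Krt77, build GRCm38.p6), and the one for Krt14 starts 1518 bases inside the gene as the file places it. The 250 bases before the start are printed for Krt77 and Krt10 because Krt77 had the largest change of the 10 between DNCB and control while Krt10, also suprabasal, was not called. Both are on the minus strand and are given 5′ to 3′, Krt77 at chr15:101869706-101869955 and Krt10 at chr11:99389365-99389614. Capitals mark matches to the TATA box core TATAAA or to the GATA core AGATAA or TGATAA:
Krt77: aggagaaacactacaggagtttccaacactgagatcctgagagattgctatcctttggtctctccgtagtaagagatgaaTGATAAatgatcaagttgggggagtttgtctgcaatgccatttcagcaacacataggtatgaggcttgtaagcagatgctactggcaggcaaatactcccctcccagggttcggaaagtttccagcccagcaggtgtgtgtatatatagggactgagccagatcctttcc
Krt10: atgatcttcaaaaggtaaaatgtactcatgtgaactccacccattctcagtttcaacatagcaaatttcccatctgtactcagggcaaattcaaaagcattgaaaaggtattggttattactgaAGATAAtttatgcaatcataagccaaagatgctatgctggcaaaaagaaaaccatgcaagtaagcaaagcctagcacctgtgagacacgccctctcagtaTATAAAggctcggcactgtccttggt

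Among 32851 windows of this length, 12.4% held TATAAA, 16.6% held a GATA core and 6.75% held the AP-1 site TGANTCA, counted on both strands. Counted from the start, Krt10 held TATAAA at position -26 and a GATA core at position -126. Krt77 held a GATA core at position -170 and no TATAAA. The Krt5 window held none of these exact letters, and no AP-1 site was found in the windows of Krt5, Krt10 and Krt77. Other forms of a TATA box were not searched, and near the start Krt77 has tatatata and Krt5 has gataaaa. These matches therefore do not show which of the genes lack a TATA box.

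The 12 libraries held 63877153 to 75134001 estimated counts, and their TMM factors were 0.887 to 1.06. Among low values (1 to 18 estimated counts), 38.9% to 41.2% could be divided by 4 without remainder, so an estimated count may not stand for 1 fragment, which was not tested. The scivMSC library of replicate 2 stood apart from the other scivMSC libraries in 4 of the 10 keratins (Krt14, Krt6a, Krt6b and Krt16), and results that rest on it are given with and without it. The 10 keratins took 2.17% ± 0.753 (SD, n = 3) of all FPKM in control and 6.79% ± 1.00 in DNCB. Their share was 1.94% ± 0.581 in scMSC and 3.58% ± 1.59 in scivMSC. Their summed level was 8709 ± 2663 FPKM in control and 24605 ± 3303 FPKM in DNCB. It was 7069 ± 1902 FPKM in scMSC and 13157 ± 5208 FPKM in scivMSC, where replicate 2 alone held 19011 FPKM.

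Repeated DNCB changed 8 of the 10 keratins against vehicle, 6 upward and 2 downward. The 4 stress keratins and the basal pair Krt5 and Krt14 were higher, Krt15 and Krt77 were lower, and Krt1 and Krt10 were not called. For comparison, 14.2% of all genes tested were called in this comparison. The libraries of the 2 groups did not overlap in 8 of the 10 keratins, against 47.7% of all genes tested. The median log2 fold change was 1.48 over the 10 keratins and 0.02 over all genes tested.

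**Figure D1:**
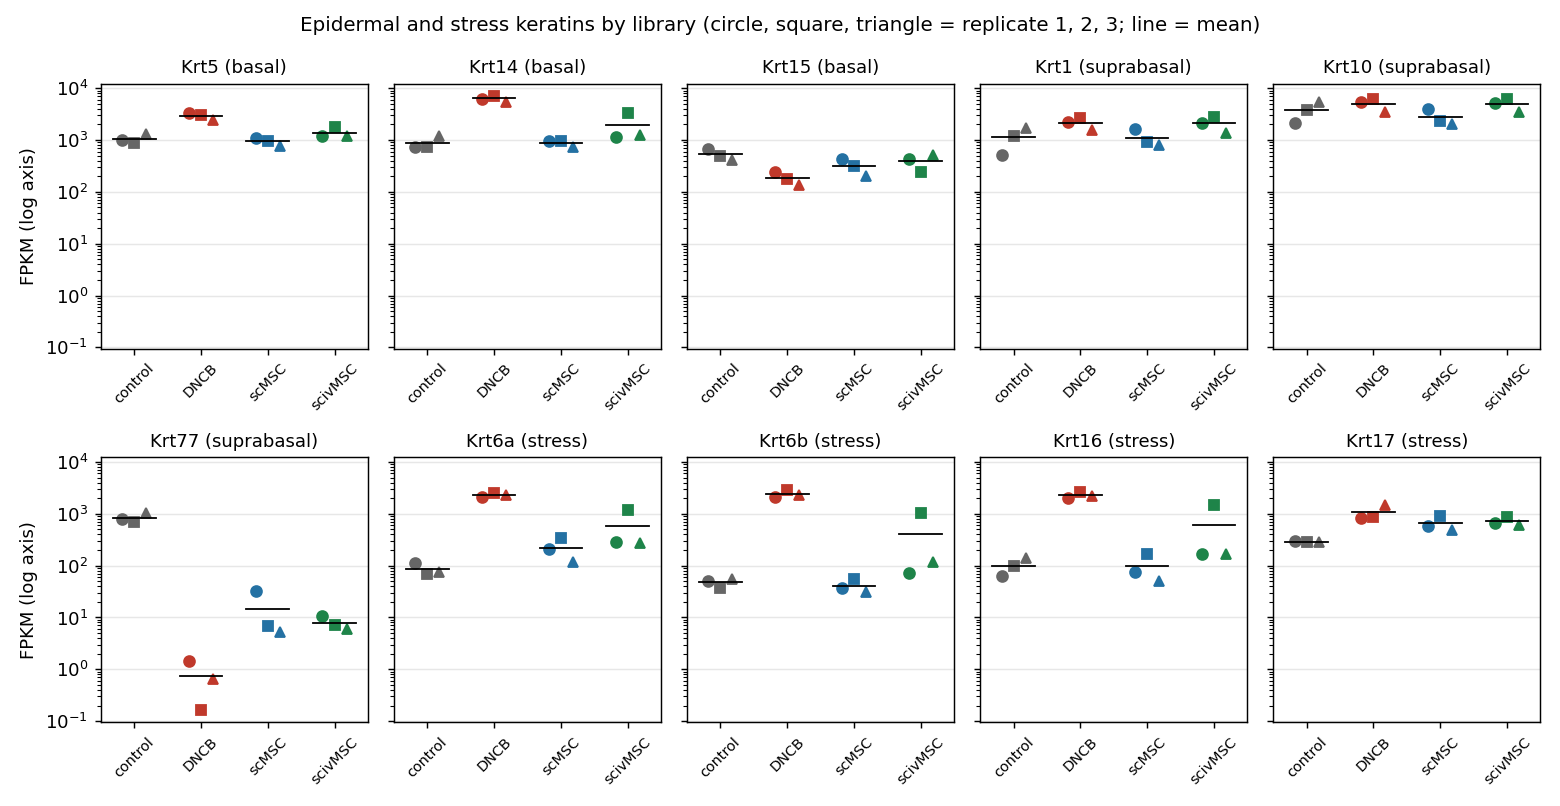
FPKM of the 10 keratins in each of the 12 libraries on a log axis, with 1 panel per gene, 3 points per group and a line at the group mean. In Krt6a, Krt6b and Krt16 the 3 DNCB libraries lie between 2041 and 2828 FPKM and the control libraries between 36.7 and 139.6 FPKM, Krt77 falls from 694 FPKM or more in control to 1.45 FPKM or less in DNCB, and the square of scivMSC (replicate 2) lies above the other scivMSC libraries in Krt14, Krt6a, Krt6b and Krt16.

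Krt6b, one of the type II stress keratins, was at 51.5, 36.7 and 54.8 FPKM in the control libraries and at 2131, 2828 and 2272 FPKM in the DNCB libraries. Krt6a, its near copy, was at 115, 69.5 and 75.7 FPKM in control and at 2071, 2487 and 2258 FPKM in DNCB. Every DNCB library was thus above every control library for both genes. The fitted log2 fold changes of DNCB over control were 5.48 (SE 0.91, adjusted p = 0.00201) for Krt6b and 4.53 (SE 0.63, adjusted p = 0.00107) for Krt6a by edgeR.

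Krt16, a type I stress keratin, was at 62.1, 97.1 and 139.6 FPKM in control and at 2041, 2625 and 2249 FPKM in DNCB, a log2 fold change of 4.36 (SE 0.87, adjusted p = 0.00487). Krt17, the other type I stress keratin, was at 297, 281 and 283 FPKM in control and at 836, 867 and 1483 FPKM in DNCB, a log2 fold change of 1.70 (SE 0.29, adjusted p = 0.00239). The groups did not overlap for either gene. Krt17 started from the highest control level of the 4 stress keratins and had the smallest fold change of them.

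Among the basal keratins, Krt14 was at 737, 745 and 1202 FPKM in control and at 6324, 7186 and 5530.0 FPKM in DNCB, and it became the keratin with the highest mean of the 10. Its log2 fold change was 2.65 (SE 0.39, adjusted p = 0.00127). Its type II partner Krt5 was at 1013, 881 and 1300.0 FPKM in control and at 3259, 3014 and 2429.6 FPKM in DNCB, with a log2 fold change of 1.27 (SE 0.22, adjusted p = 0.00278). Krt15, the alternative type I keratin of basal cells that also marks the hair follicle bulge, went the other way. It was at 674, 493 and 420.2 FPKM in control and at 242, 179 and 139 FPKM in DNCB, with a log2 fold change of -1.69 (SE 0.37, adjusted p = 0.00726).

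Of the suprabasal keratins, Krt77 had the largest change of the 10. It was at 782, 694 and 1030.3 FPKM in the control libraries, above Krt15 and close to Krt14, and at 1.45, 0.162 and 0.636 FPKM in the DNCB libraries. The DNCB values rest on 318, 40 and 152 estimated counts. The log2 fold change was -10.30 (SE 1.07, 95% confidence interval -12.66 to -7.95, adjusted p = 0.000481), a level 1264-fold lower in DNCB. At so few counts in DNCB the size is less certain than the direction, and it was between -11.20 (without DNCB replicate 1) and -8.95 over all alternatives.

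Krt1, the neighbour of Krt77, was at 505, 1196 and 1685 FPKM in control and at 2243, 2658 and 1533 FPKM in DNCB. Its log2 fold change was 0.76 (SE 0.43, 95% confidence interval -0.18 to 1.70, adjusted p = 0.224). Krt10, its type I partner, was at 2090.2, 3722 and 5395 FPKM in control and at 5332, 6124 and 3472 FPKM in DNCB, with a log2 fold change of 0.25 (SE 0.37, 95% confidence interval -0.58 to 1.07, adjusted p = 0.684). The groups overlapped for both genes, and the intervals leave room for changes of more than 1 log2 unit upward.

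**Figure D2:**
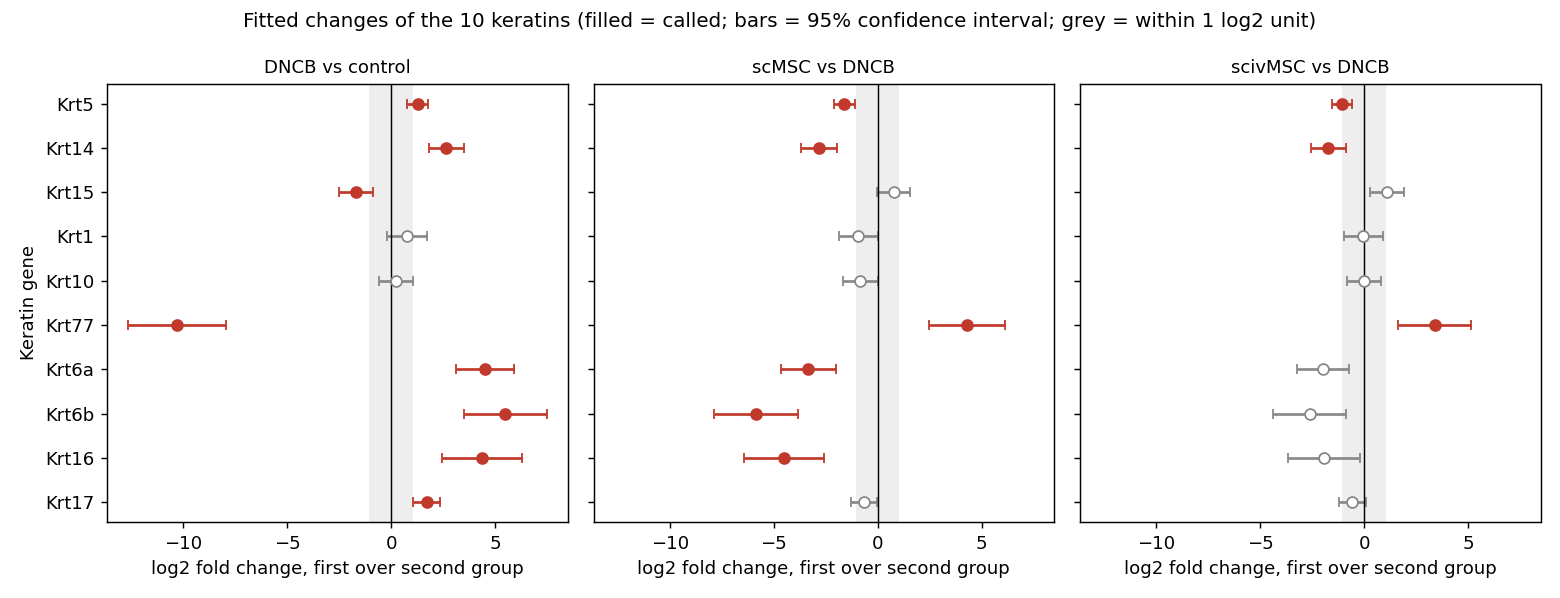
Fitted log2 fold changes of the 10 keratins (rows) for DNCB over control, scMSC over DNCB and scivMSC over DNCB, with 95% confidence intervals, filled where called and with a grey band for changes within 1 log2 unit. The 4 stress keratins, Krt5 and Krt14 lie to the right of 0 in the first panel and to the left in the others, Krt77 lies at -10.30 in the first panel and at 4.31 and 3.39 in the others, and the intervals of Krt1 and Krt10 reach into the grey band in all 3 panels.

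These calls did not depend on the settings tried. The 8 keratins were called under each of 10 other settings and after leaving out each of the 12 libraries in turn. Other cell populations moved in the same comparison, and their part in the keratin results was not tested. Of 8 neutrophil markers, 7 rose (summed level 78.8 to 141 FPKM in control and 1711 to 2399 FPKM in DNCB, with Ly6g listed at 0 in control). Of 6 fibroblast markers, 4 rose (232 to 346 FPKM in control and 1916 to 2233 FPKM in DNCB). All 6 sebaceous gland markers fell (149 to 194 FPKM in control and 11.5 to 25.5 FPKM in DNCB), as did 5 of 6 skeletal muscle markers (15492 to 22373 FPKM in control and 4188 to 6173 FPKM in DNCB) and 3 of 6 adipocyte markers (151 to 248 FPKM in control and 78.4 to 163 FPKM in DNCB). None of 10 pan-epithelial reference genes was called (215 to 316 FPKM in control and 299.7 to 316 FPKM in DNCB), nor was any of 7 macrophage markers (115 to 443 FPKM in control and 312 to 414 FPKM in DNCB). Of 5 T cell markers tested, Cd4 was called, at a mean of 0.290 FPKM in control and 1.12 FPKM in DNCB. The mean of Trac was also higher in DNCB and those of Cd3d, Cd3e and Cd3g were lower, none of them called. The median log2 fold change of the 5 was -0.33. The summed level of the T cell list was 1.69 to 3.91 FPKM in control and 2.90 to 3.28 FPKM in DNCB.

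The composition of the keratins shifted with these changes. In control, suprabasal keratins made up 63.9% ± 9.16 (SD, n = 3) of the summed FPKM of the 10 genes, basal keratins 29.8% ± 7.40 and stress keratins 6.32% ± 1.81. In DNCB the shares were 28.6% ± 4.48 suprabasal, 38.4% ± 1.57 basal and 33.0% ± 5.05 stress. The suprabasal share fell while the summed level of the 10 genes rose from 8709 to 24605 FPKM, and Krt1 and Krt10 were not called. By estimated counts, the mean suprabasal and basal shares were 71.1% and 24.2% in control and 36.6% and 33.2% in DNCB. No control library had more than 8.31% stress keratins and no DNCB library less than 28.9%. The shares and the orders that follow carry the limit on Krt1 FPKM given above. By mean level, the order in control ran Krt10, Krt1, Krt5, Krt14, Krt77, Krt15, Krt17, Krt16, Krt6a, Krt6b, in which Krt1 to Krt77 overlapped with their neighbours, as did Krt16 and Krt6a. The order in DNCB ran Krt14, Krt10, Krt5, Krt6b, Krt16, Krt6a, Krt1, Krt17, Krt15, Krt77, in which Krt14 overlapped with Krt10, and in the run from Krt5 to Krt1 each gene overlapped with the next, while Krt1, Krt17, Krt15 and Krt77 lay apart.

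**Figure D3:**
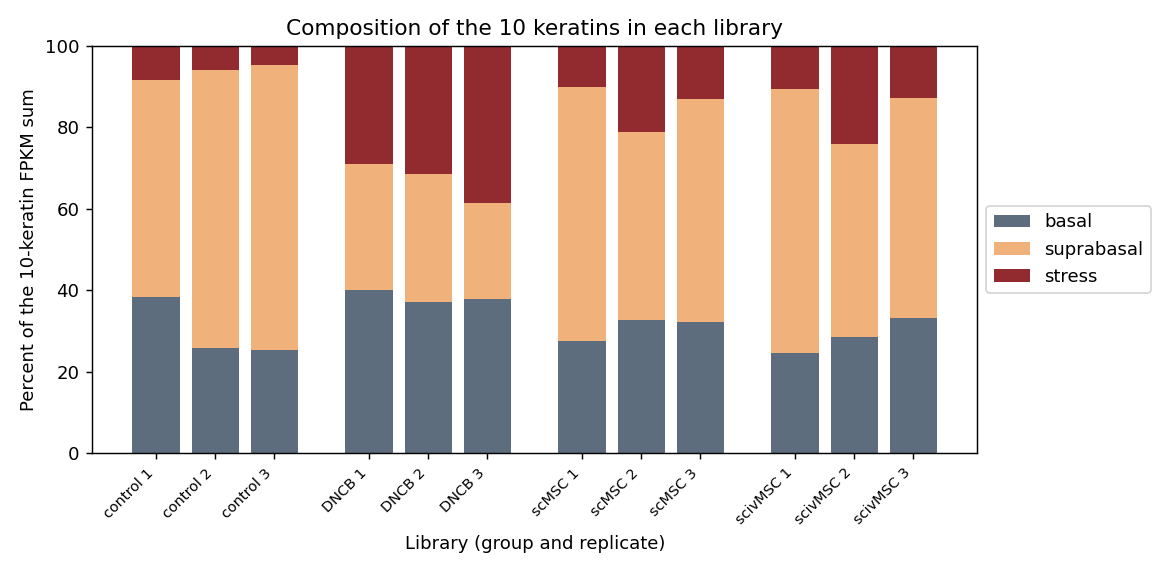
Stacked bars of the percent of the 10-keratin FPKM sum taken by basal, suprabasal and stress keratins in each of the 12 libraries. Stress keratins take 28.9% to 38.7% in the DNCB libraries and 4.77% to 8.31% in the control libraries, and among the cell-treated libraries they are highest in scivMSC replicate 2 (24.1%) and scMSC replicate 2 (21.02%).

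After MSC injection under the skin, 6 of the 10 keratins differed from DNCB, 5 lower and 1 higher. Krt5, Krt14, Krt6a, Krt6b and Krt16 were lower and Krt77 was higher, while Krt15, Krt1, Krt10 and Krt17 were not called. Of all genes tested, 8.5% were called in this comparison. The libraries of scMSC and DNCB did not overlap in 6 of the 10 keratins, against 33.1% of all genes tested. The median log2 fold change was -1.27 over the 10 keratins and 0.02 over all genes tested.

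Krt6b was at 36.4, 54.3 and 31.6 FPKM in scMSC, with a log2 fold change against DNCB of -5.85 (SE 0.92, adjusted p = 0.00337). Krt16 was at 74.5, 167 and 50.9 FPKM, with a log2 fold change of -4.51 (SE 0.88, adjusted p = 0.00806), or -5.24 without scMSC replicate 2 (adjusted p = 0.0184). Krt6a was at 205, 334 and 119.9 FPKM, with a log2 fold change of -3.33 (SE 0.60, adjusted p = 0.00551). The libraries of Krt6b and Krt16 overlapped with those of vehicle-treated skin, and those of Krt6a were all above them. Krt17 was at 590.4, 897 and 481 FPKM, above every control library and overlapping with DNCB, and its log2 fold change against DNCB was -0.65 (SE 0.29, adjusted p = 0.179).

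Krt14 was at 962, 969.5 and 733 FPKM and Krt5 at 1100.3, 966 and 759 FPKM in scMSC. Their log2 fold changes against DNCB were -2.81 (SE 0.39, adjusted p = 0.00239) and -1.60 (SE 0.23, adjusted p = 0.00239). Both genes overlapped with their control libraries. Krt15 was at 434, 317 and 199 FPKM, a log2 fold change of 0.78 against DNCB (SE 0.36, adjusted p = 0.203), with libraries that overlapped.

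Krt77 was at 32.4, 6.97 and 5.24 FPKM in scMSC, above every DNCB library and below every control library. The log2 fold change was 4.31 against DNCB (SE 0.83, adjusted p = 0.00753) and -5.99 against control (SE 0.89, adjusted p = 0.00188), a level 63.7-fold lower than in control. Without scMSC replicate 1 these values were 3.09 (adjusted p = 0.0126) and -7.21 (adjusted p = 0.00111), and without DNCB replicate 1 the value for Krt77 against DNCB was 5.21 (adjusted p = 0.0142). Krt1 was at 1629, 904 and 812 FPKM and Krt10 at 3981, 2295 and 2061 FPKM. Their log2 fold changes against DNCB were -0.93 (SE 0.43, adjusted p = 0.202) and -0.83 (SE 0.37, adjusted p = 0.196). The 6 calls against DNCB held under each of the 10 other settings and without each library in turn, and scaling to pan-epithelial genes added Krt1, Krt10 and Krt17, which gave 9 calls.

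Against control, 2 of the 10 keratins were called in scMSC, Krt77 (lower) and Krt17 (higher), with 9.32% of all genes called. Krt17 had a log2 fold change of 1.05 (SE 0.29, adjusted p = 0.0286) and every scMSC library was above every control library. This call was lost without scMSC replicate 2 (0.64, adjusted p = 0.146), without any single control library (adjusted p = 0.0860 to 0.0962) and when scaled to pan-epithelial genes (0.27, adjusted p = 0.467). Krt6a was higher by 1.20 (SE 0.55, adjusted p = 0.159), which was not called, with no overlap between the libraries. Without scivMSC replicate 2, which enters only through the shared spread, its adjusted p was 0.0448. Krt5, Krt14, Krt15, Krt1, Krt10, Krt6b and Krt16 had log2 fold changes from -0.91 to -0.15 and were not called.

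Krt17 and Krt6a are also made in the hair follicle, and hair keratins moved in the same samples. All 18 of the hair shaft and inner root sheath keratins analysed were called higher in scMSC than in control. Their summed level was 6794 to 19566 FPKM in scMSC, 2439 to 6133 FPKM in scivMSC, 259.5 to 860.4 FPKM in DNCB and 6.05 to 327 FPKM in control. Replicate 2 had the highest hair keratin sum and the highest Krt17, Krt6a, Krt6b and Krt16 of the scMSC libraries. In scivMSC, replicate 2 had the lowest hair keratin sum and the highest Krt17, Krt6a, Krt6b and Krt16. The part of follicles in these values was not tested.

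After MSC injection under the skin and into the vein, 3 of the 10 keratins differed from DNCB (Krt5 and Krt14 lower, Krt77 higher), and 5.46% of all genes were called. The libraries did not overlap with DNCB in 7 of the 10 keratins, against 32.7% of all genes tested. The median log2 fold change was -0.80 over the 10 keratins and 0.02 over all genes tested. No stress keratin was called in this comparison, although 3 of the 4 lay below every DNCB library. Krt6a was called in 7 of 10 other settings, Krt6b in 4 and Krt16 in 3, and the shares of all genes called in those settings were not counted.

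Krt14 was at 1171, 3391 and 1275 FPKM in scivMSC, a log2 fold change of -1.71 against DNCB (SE 0.38, adjusted p = 0.0221). Krt5 was at 1193, 1777 and 1219 FPKM, a log2 fold change of -1.05 (SE 0.22, adjusted p = 0.0197). Krt77 was at 10.6, 7.07 and 5.87 FPKM, a log2 fold change of 3.39 (SE 0.79, adjusted p = 0.0274), or 4.29 without DNCB replicate 1 (adjusted p = 0.0374). Replicate 2 was the highest of the 3 libraries for Krt14 and Krt5, and it was in the middle for Krt77.

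Krt16 was at 169.9, 1491 and 167 FPKM, Krt6a at 289, 1187 and 268 FPKM, and Krt6b at 72.7, 1021 and 117 FPKM in scivMSC. Replicate 2 lay between the other scivMSC libraries and the DNCB libraries in all 3 genes. Their log2 fold changes against DNCB were -1.94 for Krt16 (SE 0.79, adjusted p = 0.166), -1.98 for Krt6a (SE 0.56, adjusted p = 0.0562) and -2.60 for Krt6b (SE 0.79, adjusted p = 0.0714). Krt17 was at 677, 882 and 600.3 FPKM, a log2 fold change of -0.56 (SE 0.28, adjusted p = 0.283).

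Without scivMSC replicate 2, 7 of the 10 keratins were called against DNCB. The share of all genes called in that fit was not counted, and leaving out a library also changes the shared spread. This count is therefore not read as particular to the keratins. The log2 fold changes were then -2.34 for Krt14 (adjusted p = 0.00187), -1.23 for Krt5 (adjusted p = 0.0135), -3.74 for Krt16 (adjusted p = 0.00523), -3.00 for Krt6a (adjusted p = 0.00514), -4.63 for Krt6b (adjusted p = 0.00113) and 1.37 for Krt15 (adjusted p = 0.0379). Without scivMSC replicate 1, scivMSC replicate 3 or DNCB replicate 2 no keratin was called, and without DNCB replicate 1 only Krt77 was. Of the marker sums, scivMSC replicate 2 was the highest of its group for neutrophils, fibroblasts, macrophages and adipocytes. It was the lowest of its group for T cells (1.61 FPKM), skeletal muscle (5165 FPKM) and sebaceous glands (95.6 FPKM). Its neutrophil marker sum was 114 FPKM, against 24.4 and 51.2 FPKM in the other scivMSC libraries, and its fibroblast marker sum was 946 FPKM, against 699 and 124 FPKM. Both sums were below every DNCB library, and their part in its keratin values was not tested.

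Krt15 was at 429.7, 246 and 513 FPKM in scivMSC, all above the DNCB libraries, with a log2 fold change of 1.11 (SE 0.36, adjusted p = 0.0904). Krt1 was at 2146, 2789 and 1388 FPKM and Krt10 at 5264, 6219 and 3484 FPKM. Their log2 fold changes against DNCB were -0.03 (95% confidence interval -0.97 to 0.90, adjusted p = 0.985) and -0.00 (95% confidence interval -0.82 to 0.82, adjusted p = 1.0). The libraries of both genes overlapped with DNCB.

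Against control, 4 of the 10 keratins were called in scivMSC, Krt6a, Krt6b and Krt17 higher and Krt77 lower, with 6.85% of all genes called. The log2 fold changes were 2.54 for Krt6a (SE 0.58, adjusted p = 0.0173), 2.88 for Krt6b (SE 0.80, adjusted p = 0.0384), 1.14 for Krt17 (SE 0.29, adjusted p = 0.0257) and -6.91 for Krt77 (SE 0.92, adjusted p = 0.00435). Krt77 was 120.2-fold lower than in control. Without scivMSC replicate 2 the calls of Krt6b (0.86, adjusted p = 0.141) and Krt17 (1.00, adjusted p = 0.0906) were lost, while those of Krt6a (1.53, adjusted p = 0.0486) and Krt77 (-6.82, adjusted p = 0.0164) held. The Krt17 call was also lost without scivMSC replicate 1 (adjusted p = 0.0578) and without any single control library (adjusted p = 0.0815 to 0.084). The Krt6b call held in 4 of the 12 fits that left out 1 library. Without control replicate 2 or 3, only Krt77 was called.

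No keratin was called between the routes, scivMSC against scMSC, by edgeR, where 0.00457% of all genes were called. At an unadjusted p under 0.05, 6 of the 10 were higher in scivMSC, as were 3.4% of all genes tested. The largest differences were 3.24 for Krt6b (SE 0.82, 95% confidence interval 1.45 to 5.04, adjusted p = 0.565) and 2.57 for Krt16 (SE 0.80, 95% confidence interval 0.79 to 4.34, adjusted p = 0.571). DESeq2 called Krt6b (3.22, adjusted p = 0.00306), and the share of all genes it called between the routes was not counted. Without scivMSC replicate 2 the edgeR differences were 1.22 for Krt6b, 0.77 for Krt16, 0.47 for Krt14 and 0.33 for Krt6a (adjusted p = 0.788 to 0.945). The size of these differences thus rests on that library. Replicates 1 and 3 of scivMSC were still above every scMSC library in Krt6b (72.7 and 117 against at most 54.3 FPKM). The same held for Krt14 (1171 and 1275 against at most 969.5 FPKM) and narrowly for Krt16, while Krt6a overlapped. The share of all genes that did so was not counted. Since scMSC and scivMSC were each set against the same DNCB and control libraries, their results against these groups are not independent. Mean shares in scMSC were 54.5% ± 7.99 suprabasal, 30.8% ± 2.77 basal and 14.7% ± 5.69 stress (SD, n = 3), and in scivMSC they were 55.5% ± 8.86, 28.7% ± 4.41 and 15.8% ± 7.26.

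Because keratins pair across types, the ratio of type II to type I partners was taken in each library as a log2 ratio of FPKM. With 3 libraries against 3, a two-sided exact permutation test cannot give a p below 0.10, and over the 30 ratio tests the smallest adjusted p was 0.158. These ratios are therefore given by whether the groups separate. The Krt5/Krt14 log2 ratio was 0.46, 0.24 and 0.11 in control and -0.96, -1.25 and -1.19 in DNCB, a difference in means of -1.40 with no overlap (exact p = 0.10). Krt14 thus passed Krt5 in every DNCB library. In scMSC the ratio was 0.19, -0.01 and 0.05, and in scivMSC it was 0.03, -0.93 and -0.07, where replicate 2 was close to the DNCB libraries.

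The Krt1/Krt10 log2 ratio was -2.05, -1.64 and -1.68 in control and -1.25, -1.20 and -1.18 in DNCB, a difference of 0.58 with no overlap (exact p = 0.10). It was between -1.34 and -1.16 in the 6 cell-treated libraries, which were all above the control libraries. Among the stress keratins, the Krt6b/Krt16 log2 ratio was between 0.02 and 0.11 in DNCB, and it was below 0 in the 9 libraries of the other groups, from -1.62 to -0.27. The Krt6a/Krt17 log2 ratio was 1.31, 1.52 and 0.61 in DNCB and -1.38, -2.01 and -1.90 in control. Among the other libraries only scivMSC replicate 2 was above 0 (0.43). The Krt6a/Krt16 log2 ratio did not separate DNCB (0.02, -0.08 and 0.01) from control (0.88, -0.48 and -0.88). The difference in means was 0.14 (exact p = 0.9 by the permutation test). This ratio was 1.46, 1.00 and 1.24 in scMSC and 0.77, -0.33 and 0.68 in scivMSC.

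**Figure D4:**
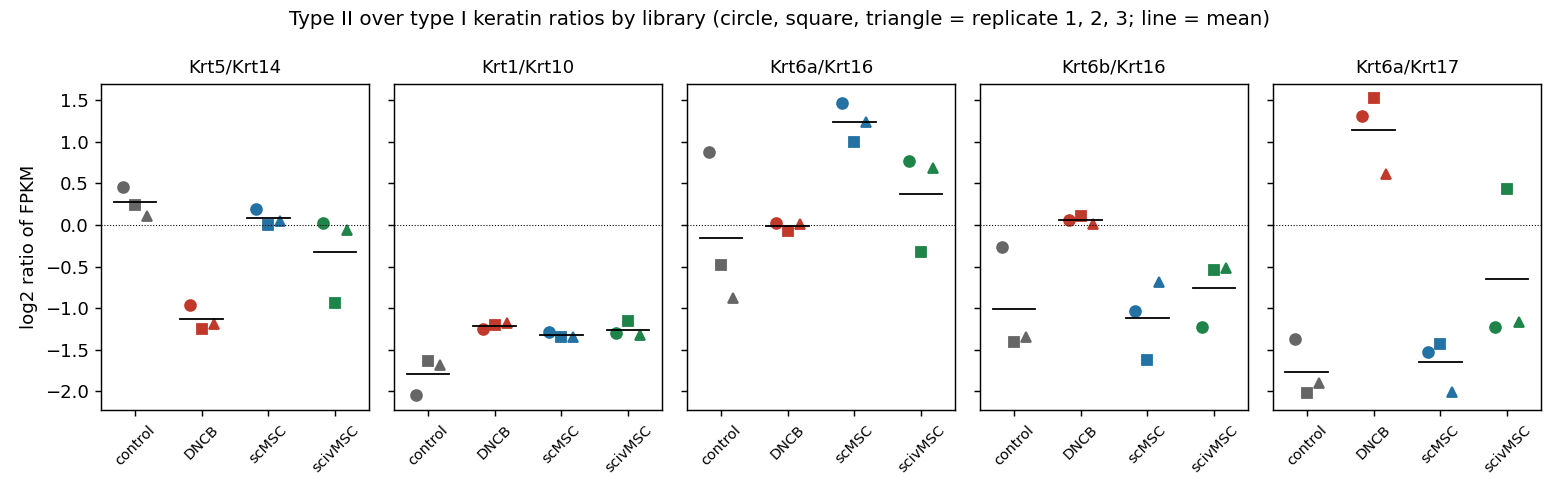
Log2 ratio of type II over type I keratin FPKM in each library for 5 pairs, with 3 points per group and a line at the group mean. Krt5/Krt14 is above 0 in the 3 control libraries and at -0.96 or below in the 3 DNCB libraries, and scivMSC replicate 2 (square) lies at -0.93 near the DNCB libraries.

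Krt6a and Krt6b, the near copies, did not move in step. Their log2 ratio Krt6a/Krt6b was 1.15, 0.92 and 0.47 in control and -0.04, -0.19 and -0.01 in DNCB. It was 2.50, 2.62 and 1.93 in scMSC, and 1.99, 0.22 and 1.20 in scivMSC. Krt6a was therefore above Krt6b in all control and cell-treated libraries and the 2 were level in DNCB, within the limit that they share part of their sequence. The log2 ratio of Krt77 to its neighbour Krt1 was 0.63, -0.79 and -0.71 in control, -10.60, -14.00 and -11.24 in DNCB, -5.65, -7.02 and -7.28 in scMSC, and -7.66, -8.62 and -7.89 in scivMSC. No library of one group overlapped on it with those of another, and the nearest libraries were those of scMSC and scivMSC at -7.28 and -7.66.

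Other keratins outside hair and the 10 described here were analysed as a list of 16, of which 15 were tested. In DNCB 5 fell and none rose, with log2 fold changes against control of -5.07 for Krt2 (SE 1.33, adjusted p = 0.0179), the keratin of upper spinous and granular cells, -3.35 for Krt23 (SE 0.42, adjusted p = 0.000724), -1.52 for Krt80 (SE 0.32, adjusted p = 0.00664) and -1.39 for Krt78 (SE 0.34, adjusted p = 0.0137). Krt24 was listed at 0 in all DNCB libraries and at a mean of 0.487 FPKM in control. In both cell-treated groups Krt23, Krt24, Krt75 and Krt80 were higher than in DNCB and no gene of this list was lower. Krt75, the companion layer keratin of the hair follicle, had a log2 fold change against DNCB of 3.50 in scMSC (SE 0.56, adjusted p = 0.00346) and 2.36 in scivMSC (SE 0.53, adjusted p = 0.0237). Krt2, like Krt77 a suprabasal type II keratin, averaged 15.5 FPKM in control against 0.529 FPKM in DNCB and 1.11 and 5.86 FPKM in scMSC and scivMSC, and it was not called against DNCB in either cell-treated group.

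Of 11 late differentiation genes, Rptn and Tgm3 rose and Flg2, Lor and Cdsn fell in DNCB. Lor, the loricrin gene of the cornified envelope, had a log2 fold change of -2.71 (SE 0.36, adjusted p = 0.000948), and Flg2, a filaggrin relative, one of -4.91 (SE 0.75, adjusted p = 0.00146). Flg2, Lor and Cdsn were higher and Rptn lower in scMSC than in DNCB, and Flg2 and Lor were higher in scivMSC than in DNCB. Of 10 proliferation genes, 9 rose in DNCB and none was called in either cell-treated group against DNCB, while 5 in scMSC and 8 in scivMSC were above control. Their summed level was 38.2 to 63.8 FPKM in control and 143 to 168 FPKM in DNCB, and it was 89.5 to 154 FPKM in scMSC and 86.1 to 133 FPKM in scivMSC.

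Of 18 transcription regulators of keratinocytes, Fosl1, which encodes an AP-1 subunit, rose (3.22, SE 0.69, adjusted p = 0.00684) and Gata3 fell in DNCB (-1.18, SE 0.18, adjusted p = 0.00137). Gata3 was higher than in DNCB in scMSC (1.70, SE 0.18, adjusted p = 0.00132) and in scivMSC (1.31, SE 0.18, adjusted p = 0.00415). In scMSC, Hopx and Ovol1 were also higher and Fosl1 and Nfe2l2 lower than in DNCB. Of 10 genes that link keratin filaments to junctions, Jup and Pkp1 rose in DNCB (1.10, SE 0.29, adjusted p = 0.0176, and 1.10, SE 0.23, adjusted p = 0.00567), and Pkp2 was the one gene called in scMSC and none was in scivMSC against DNCB. The median log2 fold changes of DNCB over control were -0.44 for the other keratins, -0.75 for late differentiation, 2.07 for proliferation, 0.30 for the regulators and 0.01 for the linkers, with 0.02 over all genes tested. Of all genes tested, 14.2% were called in DNCB against control, 8.5% in scMSC against DNCB and 5.46% in scivMSC against DNCB. The few regulators and linkers called in DNCB are not read as particular to these lists.

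The lists of other cell types moved in the cell-treated groups as well. Of 8 neutrophil markers 7 were lower than in DNCB in scMSC (9.12 to 44.2 FPKM) and 6 in scivMSC (24.4 to 114 FPKM), with Ly6g listed at 0 in both groups. Of 6 fibroblast markers 3 were lower in scMSC (245 to 750.0 FPKM) and none in scivMSC (124 to 946 FPKM). Of 6 sebaceous markers 5 were higher in each group (91.1 to 147 FPKM in scMSC and 95.6 to 278 FPKM in scivMSC). Skeletal muscle markers were not called against DNCB (4474 to 9369 FPKM in scMSC and 5165 to 11201 FPKM in scivMSC). Of 10 pan-epithelial genes 4 were higher in scMSC (399.8 to 548 FPKM) and 2 in scivMSC (376 to 446 FPKM). No macrophage marker was called (89.2 to 224 FPKM and 28.1 to 218 FPKM). Of the T cell markers Cd4 was lower in scMSC (0.605 to 2.22 FPKM for the list), and none was called in scivMSC (1.61 to 2.35 FPKM). Of 6 adipocyte markers none was called in scMSC (141 to 263 FPKM), and in scivMSC Cidec and Retn were higher and Lep lower (187 to 289 FPKM). Their part in the keratin results was not tested.

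Genes with the level most like each class over the 12 libraries were looked up among the 14376 other genes that averaged 1 FPKM or more, by Pearson's r with the mean standardized log2 level of the class. The libraries share their group structure, so r is a description. Within the basal class, Krt15 correlated at -0.59 with Krt5 and -0.72 with Krt14. Within the suprabasal class, Krt77 correlated at -0.48 with Krt1 and -0.22 with Krt10. The basal and suprabasal means thus join genes with unlike levels over the libraries. For the stress keratins the nearest genes were Gm49428 (r = 0.98), the antisense gene inside Krt6a, Slpi (r = 0.98), Gm6166 (r = 0.98), Mapk6 (r = 0.98) and Txn1 (r = 0.97). Slpi, which encodes a secreted inhibitor of leukocyte proteases, averaged 1.55 FPKM in control against 49.0 FPKM in DNCB, with 2.80 and 7.50 FPKM in scMSC and scivMSC. For the basal keratins they were Txnrd3 (r = 0.94), Nfkbiz (r = 0.93), Tnip2 (r = 0.92), Ggta1 (r = 0.92) and Anxa2 (r = 0.92). For the suprabasal keratins they were Them5 (r = 0.93), Calm4 (r = 0.92), Lrrc1 (r = 0.92), Pld2 (r = 0.90) and Dusp22 (r = 0.89).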

How the data were processed

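Bulk RNA-seq of dorsal skin was available as 12 libraries in 4 groups of 3, grouped by the submitters' labels. The deposited table holds whole-number estimated counts and FPKM for 36400 genes, made by the authors. The submitters' processing notes name Bowtie 0.12.2, HISAT2 2.0, StringTie 1.3.0 and the build mm8, but the deposited gene positions were those of GRCm38 (32007 of 36400 identical to GENCODE M21, the 10 keratins included), which is used here. Rounding, read length and strandedness are not given in the sources used here.

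The 21890 genes that averaged 0.1 FPKM or more were normalized by TMM and fitted in 1 model of the 4 groups with the quasi-likelihood test of edgeR 4.0.16 (R 4.3.3), with Benjamini-Hochberg adjustment over all genes tested. A call needed an adjusted p below 0.05 with a log2 fold change beyond 1 in either direction. The script was tested on simulated data. Levels are means ± SD of FPKM. Partner ratios were compared by a two-sided exact permutation test (scipy 1.17.1). DESeq2 1.42.0 and limma 3.58.1 (on log2 of FPKM plus 0.1 or 1) were among 10 alternatives, beside leaving out each library. The libraries held 63877153 to 75134001 estimated counts. Many low counts were multiples of 4, so dividing the counts by 4 was one of the alternatives.

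The 10 keratins and all gene lists were chosen with earlier results of these data known. From the lists, up to 4 called genes with the largest changes were named per comparison, and for each keratin class the 5 other genes with the highest Pearson's r to its mean standardized log2(FPKM + 0.1). Motifs, shared windows and the pseudogene Gm11597 were looked up after the values were seen. Krt85 was not analysed here. Sequences were read from GRCm38 and from RefSeq tables, and the authors' supplementary values were not used.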

Additional observations from a re-analysis of the deposited data

How the results depend on the processing

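The count of keratins called in DNCB against control was 8 under every alternative and without each library in turn. In scMSC against DNCB it was 6, and 9 when libraries were scaled to pan-epithelial genes, with 6 to 7 when 1 library was left out. In scivMSC against DNCB it was 3, but 7 with pan-epithelial scaling, 6 with DESeq2, 6 with limma at either pseudocount, 4 with a minimum of 1 FPKM or with counts divided by 4, 2 with the 6 libraries alone, and 0 to 7 when 1 library was left out. In scMSC against control it was 2, but 4 with pan-epithelial scaling, 1 with only the 6 libraries of the groups compared, and 1 to 3 when 1 library was left out. In scivMSC against control it was 4, but 3 with pan-epithelial scaling or with limma at either pseudocount, 5 with DESeq2, 2 with the 6 libraries alone and 1 to 5 when 1 library was left out. Between the routes it was 0, and 1 with DESeq2. The shares of all genes called under these alternatives were not counted. A setting that calls more genes and a change in the keratins therefore cannot be told apart. The cause of these differences was not tested. Pan-epithelial scaling moved the median log2 fold change of all genes to -0.70 in scMSC and -0.58 in scivMSC against DNCB, to -0.68 and -0.53 against control and to 0.12 between the routes, so its counts are relative to that shift.

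Replicate numbers did not pair the samples, since the deviations of same-numbered samples from their group means correlated at -0.185 to 0.133 (median -0.022). With the replicate block the counts, in the order given above, were 8, 6, 4, 2, 3 and 0, where Krt6a was called in scivMSC against DNCB (-2.25, adjusted p = 0.036 by edgeR) and Krt6b was no longer called against control (2.20, adjusted p = 0.104).

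Changes of sign were found only in log2 fold changes that were not called. With pan-epithelial scaling, scivMSC against control gave -0.33 for Krt5 and -0.25 for Krt10. With limma at the smaller and the larger pseudocount, scMSC against control gave 0.017 and 0.017 for Krt14 and 0.077 and 0.077 for Krt1, and scivMSC against DNCB gave 0.00288 and 0.00288 for Krt10. Krt10 in scivMSC against DNCB was also 0.0017 with a minimum of 1 FPKM, 0.00092 with counts divided by 4 and 0.0034 with the replicate block. When 1 library was left out, the ranges that crossed 0 were -0.33 to 0.019 for Krt14 and -0.57 to 0.13 for Krt1 and -0.92 to 0.17 for Krt16 in scMSC against control, -0.26 to 0.18 for Krt1 and -0.21 to 0.19 for Krt10 in scivMSC against DNCB, -0.068 to 0.52 for Krt10 in DNCB against control, -0.069 to 0.52 for Krt10 in scivMSC against control, and -1.32 to 0.30 for Krt77 and -0.097 to 0.47 for Krt17 between the routes. The ratio differences that did so were -0.22 to 0.67 for Krt6a/Krt16 in DNCB against control, and -0.32 to 0.26 for Krt6b/Krt16 and -0.012 to 0.31 for Krt6a/Krt17 in scMSC against control. By estimated counts in place of FPKM, the mean basal and suprabasal shares were 33.2% and 36.6% in DNCB, 25.4% and 63.6% in scMSC, and 23.2% and 64.4% in scivMSC.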
